A study of Mus musculus with 2 samples.

Results

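Oligodendrocyte precursor cells (OPCs) are the dividing glia that give rise to myelinating oligodendrocytes, and the cells described here are the OPCs that carried genes of the start of DNA replication without much of the genes of G2 and mitosis. A barcode with at least 500 genes, at least 2000 UMIs (unique molecules) and at most 10% mitochondrial UMIs was taken as an OPC when it held at least 3 UMIs of Pdgfra per 10000, fewer than 10 per 10000 of C1qa, C1qb and C1qc together, and at least 2 UMIs of Olig1 and Olig2. It belonged to the S gate when the sum of 6 genes, Mcm3, Mcm5, Mcm6, Hells, Dtl and Lig1 (the S set), reached 8 per 10000 and the sum of 5 genes, Mki67, Top2a, Cenpf, Ube2c and Birc5 (the G2/M set), stayed under 8 per 10000. The S gate held 149 cells, 82 of them WT-CNO and 67 DREADD-CNO. They came from 4713 OPCs by this rule (2519 and 2194), 8561 barcodes past quality (3995 and 4566) and 13006 barcodes in all (6252 and 6754). These values chose the cells, so the levels of the rule's genes, and every comparison of the S gate with other OPCs, are descriptions.

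The tissue was corpus callosum with cortex, taken from C57BL/6J mice on postnatal day 8, dissociated with papain and enriched on PDGFRα and O4 magnetic beads, antibodies against surface markers of OPCs and of later lineage cells. All pups were injected on postnatal day 0 with AAV hSyn-DIO-hM4D(Gi)-mCherry, an inhibitory designer receptor that a neuronal promoter drives and that needs Cre recombinase to be switched on. All also received the receptor's activating drug, clozapine-N-oxide (CNO), by mouth 2 times a day from postnatal day 2 to postnatal day 8. The DREADD-CNO pups carried Neurod6tm1(cre)Kan (NexCre), a Cre allele of cortical excitatory neurons, and the WT-CNO pups were wildtype. The study asked what silencing these neurons does to oligodendrocyte-lineage cells. Each group was 1 library, a pool of 2 WT-CNO pups or 3 DREADD-CNO pups, so no test between groups, p-value or replicate error exists, and genotype, pups and library cannot be told apart. All intervals are 95% intervals of counting error only.

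Before a cell copies its DNA, origins are licensed in G1 by loading of the MCM helicase, with Cdc6 and Cdt1 as loaders. E2F factors then switch on cyclin E, the remaining replication genes and the enzymes that make deoxynucleotides, forks are built around PCNA and the polymerases, and histone mRNAs rise to package the new DNA. G2 and mitosis genes, many of them repressed until late in the cycle through the DREAM complex, follow. OPCs keep dividing in the first postnatal weeks and leave the cycle as they become committed precursors.

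The median S gate cell had 16433 UMIs in WT-CNO and 23985 in DREADD-CNO, against 10835 and 15980 in OPCs that passed neither gate and 20717 and 27011.5 in OPCs past both limits. Their summed UMIs were 1512353 and 1456097. Library totals were 78794300 and 108912581 UMIs. Of all barcodes, 12 sequences occurred in both libraries, 0 of them in S gate cells, and 0 S gate cells were among the barcodes removed as doublets. The libraries differed in sex and in a ribosomal state, the share of cells with at least 3% of UMIs on ribosomal protein mRNAs. By UMIs of Xist and of Y-linked genes, 64 of the 82 WT-CNO cells were female and 12 male, and 15 of the 67 DREADD-CNO cells were female and 44 male. Ribosomal-rich cells were 42.7% (31.8 to 54.1) of the WT-CNO and 67.2% (54.6 to 78.2) of the DREADD-CNO S gate cells. In OPCs of neither gate they were 29.0% and 54.0%.

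The median S gate cell had UMIs of 5 of the 6 S set genes in WT-CNO (fewest 3) and of 6 in DREADD-CNO (fewest 2). The S set stood at a median of 9.44 per 10000 (quartiles 8.66 and 10.9, highest 18.7) in WT-CNO and 10.7 (8.97 and 12.6, highest 16.4) in DREADD-CNO, which were medians of 16 and 23 UMIs a cell. At the border, 64 WT-CNO and 51 DREADD-CNO OPCs below the G2/M limit lay from 6 to under 8 per 10000, and 45 and 28 lay from 8 to under 10. Levels over cells are given as CPM, the UMIs of a gene summed over the cells of a gate and scaled to a total of 1000000. Hells, a chromatin remodeller, was at 222 and 249 CPM, against 21.6 and 17.9 in neither gate. Mcm3, a subunit of the helicase, was at 161 and 194 CPM against 11.4 and 11.1. Mcm6, another subunit, was at 190 and 171 CPM against 19.4 and 17.9, and Mcm5 at 110 and 144 against 9.10 and 9.51. Dtl, which hands the licensing factor Cdt1 to a ubiquitin ligase, was at 143 and 144 CPM against 8.89 and 7.58, and Lig1, the ligase that joins Okazaki fragments, at 178 and 222 against 17.3 and 16.8. Of the G2/M set, Top2a, the topoisomerase that untangles copied DNA, was already at 173 and 234 CPM against 17.1 and 12.3. Cenpf, a kinetochore gene of G2 and mitosis, was at 9.26 and 18.5 CPM against 10.7 and 8.01.

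**Figure D1:**
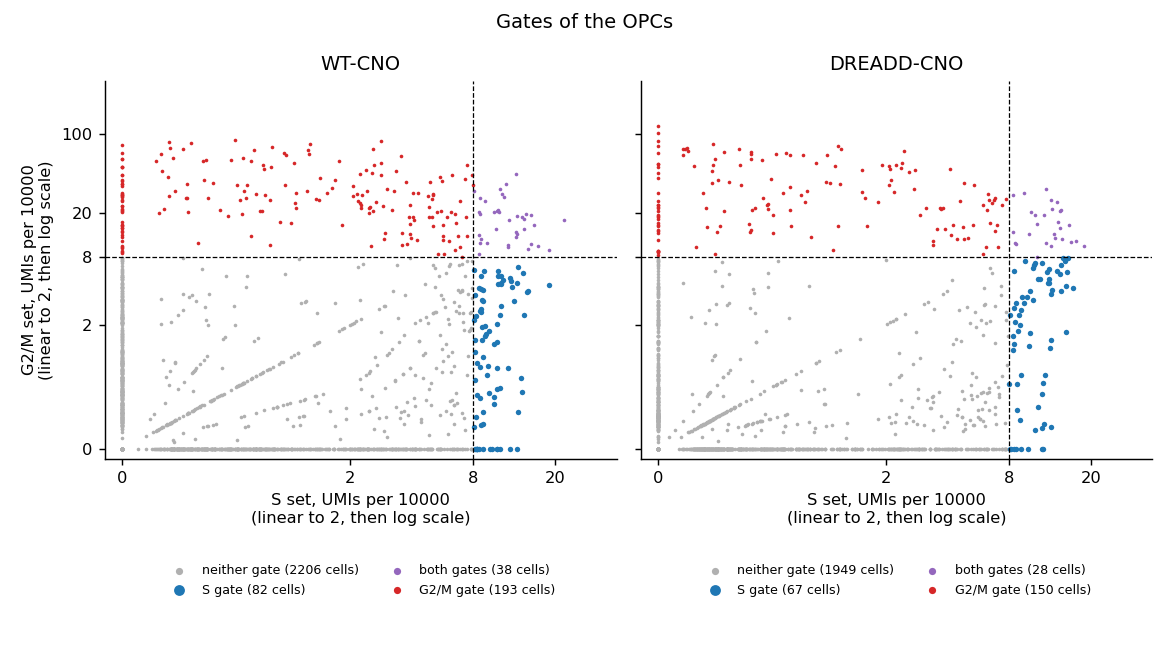
Each point is an OPC, with the S set on the horizontal axis and the G2/M set on the vertical axis, both in UMIs per 10000 on a scale that is linear to 2 and logarithmic above, and dashed lines at the limits of 8. The S gate (lower right) held 82 WT-CNO and 67 DREADD-CNO cells, and 14 and 8 of them lie on the floor of 0 UMIs of the G2/M set.

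The promoters of the rule's S set and G2/M set held different sequence motifs, which the counts did not use. Promoters of 300 bases (250 before to 50 after the start, RefSeq, GRCm38.p6) were searched on both strands for the E2F letters TTTCCCGC, TTTGGCGC, TTTCGCGC and TTTGCCGC, and for the CHR letters TTTGAA and TTCGAA, the element bound by the DREAM complex. The E2F letters can overlap each other on opposite strands. All 6 S set genes had a promoter with an E2F match (6 of 8 promoters), and 0 of the 5 G2/M set promoters did. The share was 2.26% of all 32851 promoters and 4.04% of promoters of all measured genes. CHR letters were in 0 of 8 S set promoters and 4 of 5 G2/M set promoters, against 19.2% of all promoters and 13.3% of those of measured genes. Wider lists of genes outside the rule were less clearly split. E2F and CHR letters were in 38.1% and 42.9% of licensing and G1/S promoters. They were in 28% and 12% of fork, 5.56% and 11.1% of nucleotide supply, and 18.2% and 22.7% of chromatin assembly promoters. For repair genes the shares were 23.5% and 11.8%, and for G2 and M genes 3.33% and 83.3%. A match is a description of letters, not of binding. The examples are 2 S set genes, Clspn, which headed the genes outside the rule, and Top2a, in the strand of the gene. Capitals mark E2F letters in Mcm6 (chr1:128359656-128359955, minus strand), Dtl (chr1:191575495-191575794, minus strand) and Clspn (chr4:126556730-126557029, plus strand), and CHR letters in Top2a (chr11:99024140-99024439, minus strand).
Mcm6: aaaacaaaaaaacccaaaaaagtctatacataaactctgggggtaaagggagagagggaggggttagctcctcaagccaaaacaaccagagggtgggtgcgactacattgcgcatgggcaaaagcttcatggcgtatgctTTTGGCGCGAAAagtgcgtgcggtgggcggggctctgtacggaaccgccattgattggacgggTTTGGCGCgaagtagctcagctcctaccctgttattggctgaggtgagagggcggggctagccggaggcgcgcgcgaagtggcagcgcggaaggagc
Dtl: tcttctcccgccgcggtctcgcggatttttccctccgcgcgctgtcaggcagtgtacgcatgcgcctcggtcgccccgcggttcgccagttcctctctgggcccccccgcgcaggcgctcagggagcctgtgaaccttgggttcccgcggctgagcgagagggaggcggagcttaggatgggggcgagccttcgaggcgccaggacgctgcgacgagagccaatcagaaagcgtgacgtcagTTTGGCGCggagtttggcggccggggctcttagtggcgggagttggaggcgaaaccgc
Clspn: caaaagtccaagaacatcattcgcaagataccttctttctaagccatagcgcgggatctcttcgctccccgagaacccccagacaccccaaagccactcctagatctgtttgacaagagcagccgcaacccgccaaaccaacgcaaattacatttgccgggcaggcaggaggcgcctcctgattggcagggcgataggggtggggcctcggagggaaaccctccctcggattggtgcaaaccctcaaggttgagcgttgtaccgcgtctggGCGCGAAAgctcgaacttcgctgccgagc
Top2a: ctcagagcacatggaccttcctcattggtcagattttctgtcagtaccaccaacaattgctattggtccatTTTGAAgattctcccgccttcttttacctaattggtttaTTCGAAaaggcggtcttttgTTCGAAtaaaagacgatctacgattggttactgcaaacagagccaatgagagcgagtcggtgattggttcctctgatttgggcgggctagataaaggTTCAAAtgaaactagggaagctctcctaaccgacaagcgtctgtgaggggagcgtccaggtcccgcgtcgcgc
In Mcm6 the first capital stretch is a pair of E2F matches that overlap on opposite strands, and Top2a held 4 CHR matches and no E2F match.

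The S gate was 3.26% (2.6 to 4.02) of WT-CNO OPCs and 3.05% (2.37 to 3.86) of DREADD-CNO OPCs. The difference, DREADD-CNO minus WT-CNO, was -0.201 percentage points (-1.20 to 0.818), within counting error. Among OPCs past either limit, the S gate was 26.2% (21.4 to 31.4) and 27.3% (21.9 to 33.4). Within ribosomal-rich OPCs the S gate was 4.55% and 3.70%, and within ribosomal-poor OPCs 2.69% and 2.25%. It was 3.05% and 2.74% of female OPCs, and 4.56% and 3.24% of male OPCs. In 4 ranges of depth, cut at the same UMI totals in both libraries, the share was 1.99%, 2.36%, 3.05% and 7.03% in WT-CNO and 0.941%, 3.06%, 1.71% and 5.37% in DREADD-CNO, highest in the deepest range of each. With OPCs thinned to 5000 UMIs, and those with fewer left out, the shares were 4.6% and 3.80%. Committed lineage cells without Pdgfra passed the S and G2/M conditions in 0 of 379 cells of WT-CNO and 0 of 867 of DREADD-CNO, where a count of 0 allows 0.792% and 0.346% by a limit of 3 counts, with exact intervals up to 0.969% and 0.425%. Those cells were deeper than OPCs, at medians of 31063 and 30207 UMIs. Cells with C1q genes and without Pdgfra, at medians of 15627 and 16514 UMIs, passed in 10.5% (30 of 287) and 7.17% (19 of 265).

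Pdgfra, the receptor for the OPC mitogen PDGF and a gene of the rule in every gate, was at 1363 and 1253 CPM, with 0.958 times (0.916 to 1.00) and 1.02 times (0.969 to 1.07) the level of neither gate. Of 22 measured OPC identity genes, 0 passed the size rule in either direction in both libraries. Over all 11343 measured genes 1.3% passed as higher and 0.767% as lower, so a list of this size has few calls or none. The median log2 ratio of the 22 genes over neither gate was -0.18 and -0.13, beside 0.020 and -0.0097 over all measured genes. The summed level of all 23 genes of the list was 0.879 times (0.870 to 0.887) and 0.930 times (0.920 to 0.940) that of neither gate. Of the 22 measured genes, 4 were higher in value in each library. The size rule asked for at least 20 CPM and 100 UMIs on the higher side, a ratio of at least 1.5 and an interval that excluded 1, and for the gates it had to be met in both libraries. In the S gate 100 UMIs were 66.1 CPM in WT-CNO and 68.7 in DREADD-CNO, the least level for a higher call. Neither gate had 29016535 and 32604415 UMIs, so a lower call needed only 20 CPM there. Counts of genes higher and lower between the gates are therefore not comparable with each other. Ptprz1, a receptor phosphatase of OPCs, was at 4353 CPM in WT-CNO and 4271 in DREADD-CNO S gate cells, and Lhfpl3 at 6048 and 5370. Of other cell types, the 6 endothelial markers summed to 1.32 and 2.75 CPM, the 5 fibroblast markers to 0.661 and 2.06 CPM, and the 8 microglial markers to 58.8 and 41.9 CPM with Tmem119 at 0 in both libraries. The astrocyte list summed to 573 and 621 CPM, most of it Slc1a3, which OPCs also carry, with Gfap and Gja1 at 0. The 10 neuron markers summed to 261 and 238 CPM, of which Snap25 was 173 and 160, against 335 and 304 in neither gate. The 8 oligodendrocyte markers summed to 225 and 374 CPM, against 628 and 895 in neither gate, with Opalin at 0. Ttr, a choroid plexus gene, was at 0 UMIs in WT-CNO and 32.3 CPM in DREADD-CNO S gate cells, and its part in any library difference was not tested. Neurod6, into which Cre was inserted, had 0 UMIs in WT-CNO and 2 in DREADD-CNO S gate cells.

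Outside the rule's 17 genes, 148 genes (1.3% of those measured) were higher and 87 (0.767%) lower in the S gate than in neither gate in both libraries. The rule chose these cells by genes of the same programme, so nothing is read from these counts. With TMM scaling the split was 133 higher and 125 lower, and with median-of-ratios scaling 135 and 119. Fork and checkpoint genes stood among the leaders. Clspn, the checkpoint mediator that travels with the fork, was at 91.2 CPM against 6.62 in WT-CNO and at 125 CPM against 6.04 in DREADD-CNO, with ratios of 13.8 (11.0 to 17.3) and 20.7 (16.8 to 25.4). Uhrf1, which brings the maintenance methyltransferase to new DNA, had ratios of 12.9 and 18.9, and Pclaf, a PCNA-binding protein, 12.2 and 34.8. Brca1, of recombination repair, had 10.3 and 12.6, and Pole, the catalytic subunit of the leading-strand polymerase, 9.52 and 13.3. Atad2, a chromatin ATPase, had 9.03 and 12.8, and Fam111a, a protease of replication forks, 9.24 and 10.6. The kinetochore genes Cenph (9.84 and 16.0), Cenpp (8.56 and 11.7) and Cenpk (8.83 and 14.9) stood among the 15 leaders, which also held Mms22l, Mcm4, Fen1 and Rmi2, with ratios between 7.42 and 9.84. E2F letters were in 22.9% of the 144 promoters of the higher genes that matched, against 4.04% of promoters of all measured genes and 1 of 93 for the lower genes. These genes come from the same contrast that the rule made, so nothing is read from these shares either.

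The replication lists are of the programme that chose the cells, so their counts are descriptions, beside 1.3% of all measured genes called higher. Grouped by role, of 23 licensing and G1/S genes 5 passed the rule and all 23 were above neither gate in value in both libraries, with a median log2 ratio of 2.37 and 2.72. Among them, Mcm4 was at 120 and 116 CPM against 13.8 and 14.8, and Cdc6, the licensing loader, at 29.8 and 38.5 against 1.93 and 1.53, under the minimum of UMIs. Of 28 fork genes 14 passed, with medians of 2.10 and 2.38. Pcna, the sliding clamp, was at 161 and 221 CPM against 26.4 and 29.2, and Top1, a topoisomerase used in transcription too, was at 303 and 300 against 315 and 318. Of 17 nucleotide supply genes 5 passed, with medians of 1.56 and 1.56. Of 20 chromatin assembly genes 11 passed, led in level by H2afz, a variant histone, at 489 and 725 CPM against 248 and 305, and Nasp, a histone chaperone, at 395 and 438 against 125 and 124. Of 22 repair genes 4 passed, with medians of 2.77 and 2.79. Of 24 measured G2 and M genes outside the rule 0 passed, although their median log2 ratio was 2.00 and 2.83. To hold the minimum of UMIs, a gene needed 66.1 CPM in WT-CNO and 68.7 CPM in DREADD-CNO S gate cells. All 35 genes of that list together summed to 482 and 708 CPM there, so few could pass. The count of 0 therefore cannot show whether these G2 and M genes rose. Cdk1 among them was at 33.7 and 62.5 CPM against 5.96 and 3.16, and at 288 and 326 CPM in the OPCs of the G2/M gate alone.

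**Figure D2:**
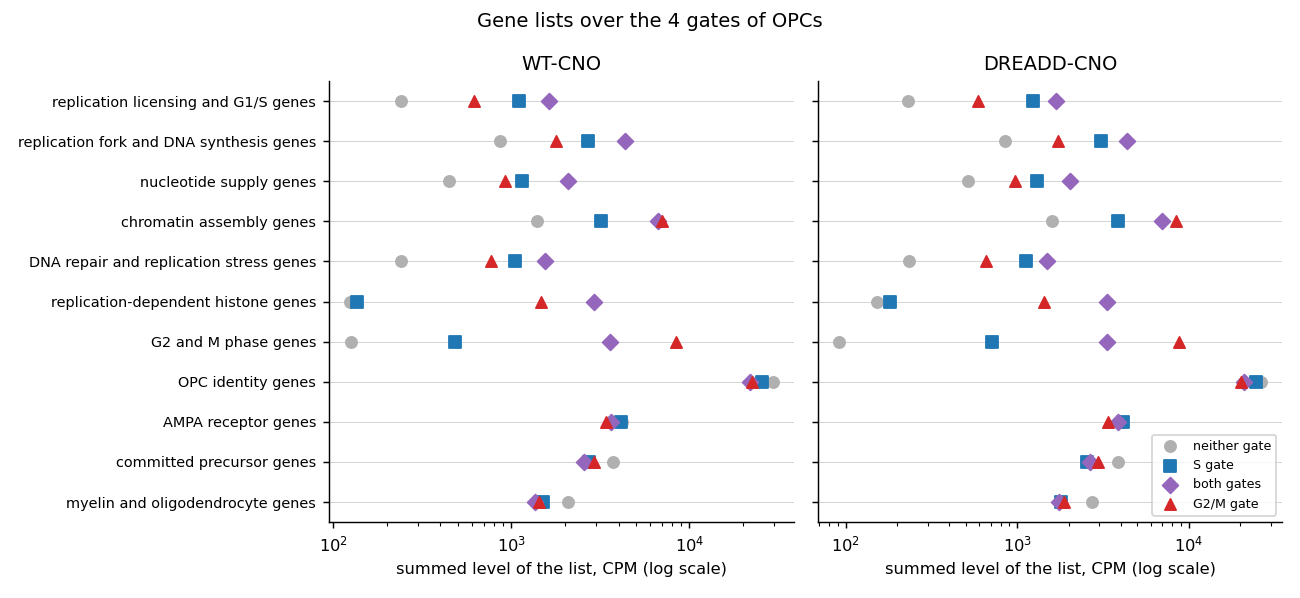
Summed level of each gene list in CPM, on a log axis, in the 4 gates of OPCs, with WT-CNO on the left and DREADD-CNO on the right. Replication lists lie to the right of neither gate in the S gate, whereas the histone list of the S gate (136 and 181 CPM) lies beside neither gate (124 and 152 CPM) and far from both gates (2918 and 3342 CPM).

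Replication genes chose these cells and cannot check the label of S phase. Histone mRNAs, which the rule did not use, were near the level of neither gate, so the cells are called S gate OPCs throughout. Replication-dependent histone mRNAs rise when DNA is being copied. Most lack a poly(A) tail, so libraries primed on poly(A) record them in part. Summed over 18 such genes they were at 136 CPM in WT-CNO S gate cells and 124 in neither gate, and at 181 CPM in DREADD-CNO S gate cells and 152 in neither gate. In OPCs past both limits they were at 2918 and 3342 CPM, and in the G2/M gate alone at 1469 and 1435. The median cell of the S gate had 1.17 histone UMIs per 10000 in WT-CNO (lowest 0, highest 5.56) and 1.69 in DREADD-CNO (lowest 0, highest 4.28). The median cell of both gates had 11.6 (highest 100.5) and 24.1 (highest 171.6). A level of 10 per 10000 was reached by 0 of the 82 WT-CNO and 0 of the 67 DREADD-CNO S gate cells, counts that allow 3.66% and 4.48% by a limit of 3 counts, with exact intervals up to 4.40% and 5.36%. It was reached by 20 of 38 and 17 of 28 cells of both gates (52.6% and 60.7%). Hist1h1b, a linker histone, was at 28.4 and 28.8 CPM in the S gate, 11.5 and 6.75 in neither gate, and 827 and 964 in both gates. Hist1h2bc, whose gene also gives polyadenylated mRNA, was the 1 member lower by the rule, at 7.93 CPM against 20.2 and at 11.0 against 34.2. Histone genes have near-identical copies, so the counts of single members are uncertain. Slbp, which binds the histone mRNA stem loop, was at 78.0 and 88.6 CPM against 25.5 and 25.1.

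**Figure D3:**
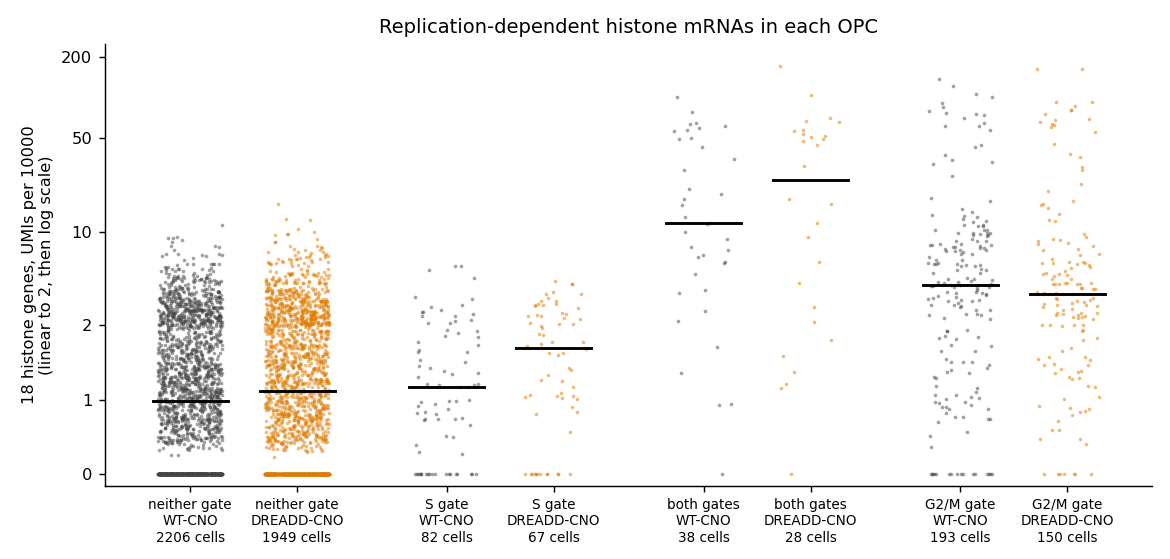
UMIs of 18 replication-dependent histone genes per 10000 in each OPC (points, linear to 2 and logarithmic above) and the median of each group (bars), by gate and library. No S gate cell reaches 10 per 10000, where 20 of 38 WT-CNO and 17 of 28 DREADD-CNO cells of both gates do.

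S gate cells differed among themselves along the G2/M set, which the rule used only as an upper limit. Of the WT-CNO cells 14 had 0 UMIs of this set, 47 had some but under 4 per 10000, and 21 had from 4 to under 8. Of the DREADD-CNO cells these numbers were 8, 34 and 25. Across these 3 ranges Pclaf was at 11.4, 86.5 and 238 CPM in WT-CNO and at 33.9, 130 and 407 in DREADD-CNO, and in both gates at 704 and 644. Rrm2, the regulated subunit of ribonucleotide reductase, was at 45.5, 53.6 and 76.5 CPM in WT-CNO and at 22.6, 51.4 and 161 in DREADD-CNO. Pcna was at 73.9, 160 and 208 CPM, and at 67.9, 201 and 273. Esco2, which joins sister chromatids as they are copied, was at 0, 1.03 and 38.3 CPM, and at 0, 8.78 and 56.1. The spindle motor gene Kif11 was at 17.1, 5.15 and 73.8 CPM in WT-CNO and at 0, 6.27 and 68.4 in DREADD-CNO. Ung, which removes uracil from DNA, was at 45.5, 43.3 and 43.7 CPM in WT-CNO, and at 22.6, 57.7 and 59.6 in DREADD-CNO. Cdca7, a chromatin gene of S phase, was at 68.3, 61.8 and 60.1 CPM, and at 56.6, 48.9 and 54.4. Histone mRNAs stayed low in all 3 ranges, at 159, 135 and 129 CPM in WT-CNO and at 113, 174 and 200 in DREADD-CNO. The lowest range was shallow, with medians of 9637 UMIs in WT-CNO and 9604 in DREADD-CNO.

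**Figure D4:**
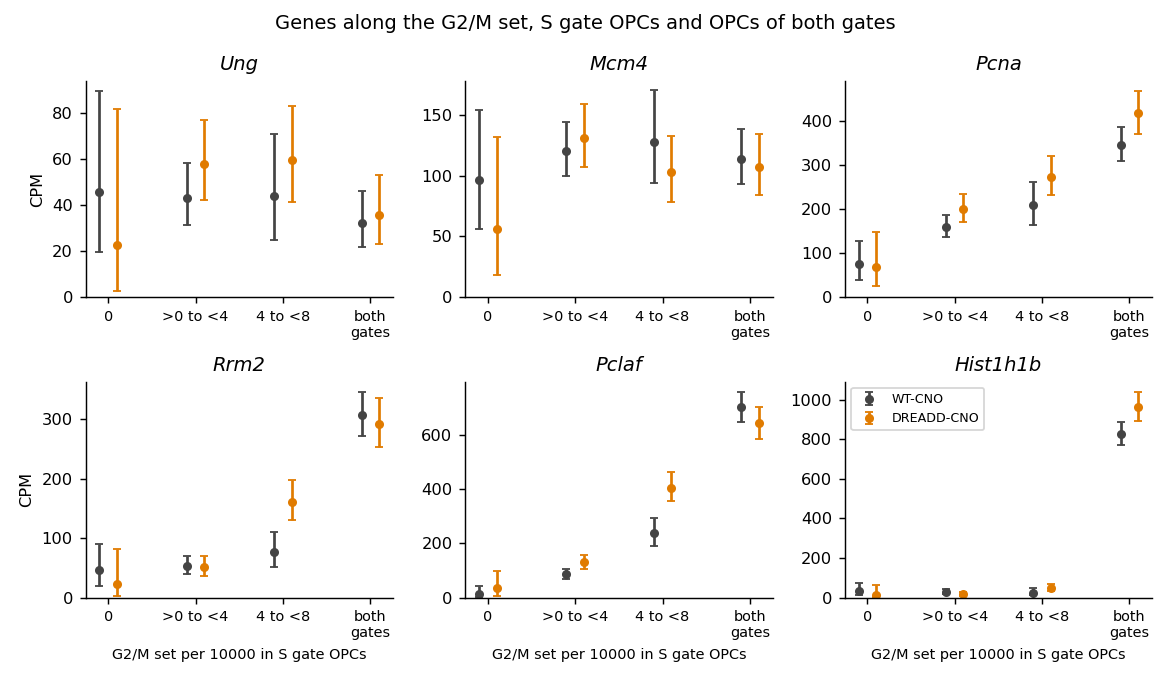
Level of 6 genes in CPM with exact Poisson intervals, in S gate OPCs split by their G2/M set per 10000 and in OPCs of both gates, by library. Pclaf, Pcna and Rrm2 are highest in both gates, Mcm4 and Ung are not, and Hist1h1b lies between 11.3 and 47.3 CPM in the S gate ranges against 827 and 964 CPM in both gates.

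Among the genes lower in the S gate, St18, a zinc finger transcription factor gene, was at 3.31 CPM against 47.0 in WT-CNO and at 4.81 against 54.0 in DREADD-CNO, with ratios of 0.0703 (0.0228 to 0.165) and 0.0890 (0.0357 to 0.184). Enpp6, a marker of newly forming oligodendrocytes, was at 8.60 and 11.7 CPM against 56.5 and 77.3, and Bmp4, a secreted ligand of committed precursors, at 12.6 and 11.7 against 41.5 and 54.5. Of 17 committed precursor genes 5 were lower by the rule (Bcas1, Tcf7l2, Frmd4a, Bmp4 and Enpp6) and 0 higher, beside 0.767% and 1.3% of all measured genes. Gpr17, the receptor of that stage, was at 411 and 321 CPM against 477 and 470, which did not pass. Of 10 measured myelin genes 5 were lower, among them Mbp, Cnp, Cldn11 and Sirt2, with a median log2 ratio of -1.01 and -1.01. These ratios are of summed levels, and the median cell differed less. The whole myelin list was at a median of 14.6 UMIs per 10000 in WT-CNO S gate cells and 14.8 in neither gate. In DREADD-CNO these medians were 17.9 and 20.1. The highest cell had 42.9 and 46.8 in the S gate, against 243 and 1215 in neither gate. Committed precursor genes had medians of 26.5 against 27.8, and 24.2 against 29.1. Mbp, a major myelin protein, was at 74.7 and 124 CPM against 236 and 325. Nkain2, Kdm5b (a histone demethylase), Pik3r3 (a regulatory subunit of PI3 kinase) and Pdcd4 (a translation inhibitor) were also among the 10 lowest, with ratios between 0.108 and 0.402. With neither gate limited to cells low in committed precursor and myelin genes, 149 genes were higher and 71 lower. The smaller log2 ratio of Frmd4a, a scaffold gene, was then 0.10.

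Over all measured genes 1.3% were higher and 0.767% lower between the gates, so that lists of this size have few calls or none at that share, and the following counts are descriptions. Of 10 measured inhibitors of cyclin-dependent kinases and exit genes, Cdkn1c passed as lower, at 11.2 CPM against 22.3 and 13.05 against 35.8. Of 8 measured p53 targets 0 passed. Among 19 G1 regulators E2f3 (102 and 98.9 CPM against 56.1 and 49.6) and its partner Tfdp1 (85.3 and 106 against 46.9 and 48.6) passed as higher. Ccnd1, the cyclin D gene that mitogens induce, was at 263 CPM against 171 in WT-CNO and 207 against 202 in DREADD-CNO. Of 14 measured AMPA receptor genes 0 passed, with medians of -0.02 and 0.06. Gria2 was at 1246 and 1275 CPM against 1278 and 1212. Of the 14 other glutamate receptor genes measured 0 passed in both libraries. Grik1, a kainate receptor subunit, was at 631 CPM against 433 and 548 against 335, with ratios of 1.46 and 1.64. Growth factor receptor, immediate early, immature progenitor, cholesterol and glycolysis lists had 0 members past the rule in both libraries.

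Between the libraries, 66 genes (0.58% of 11385 measured in S gate cells) were higher and 49 (0.43%) lower in DREADD-CNO, and 3371 genes had the level and UMIs to pass. In OPCs of neither gate the shares were 0.794% and 0.169%. Of these 115 genes (1.01%), 11 passed in the same direction in neither gate, whose cells come from the same libraries. By sign alone, 104 of the 115 went the same way there, 58 up and 46 down in DREADD-CNO. The share of all measured genes with the same sign in both sets of cells was not counted, so nothing is read from this. The numbers of genes past the rule in S gate cells moved with scaling, to 53 and 58 with TMM and 49 and 71 with median-of-ratios factors. They also moved with the mix of cells. They were 62 and 18 in ribosomal-rich and 6 and 33 in ribosomal-poor cells, and 10 and 108 in female and 99 and 2 in male cells, where WT-CNO had 12 male and DREADD-CNO 15 female cells. The library with more cells of a kind reached the size rule's minimum of UMIs more easily. The direction of calls within a sex therefore depended on cell numbers, and nothing is read from it. Xist (1477 and 420 CPM) and the Y-linked Eif2s3y (17.2 and 76.2 CPM) were among the genes that passed. The part of sex and ribosomal state in the library differences was not tested.

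Of the replication and mitosis lists, 1 of 28 fork genes, 1 of 17 nucleotide supply genes and 0 licensing, repair and G2 and M genes passed as higher in the library contrast, beside 0.58% of all genes. Pclaf, Rrm2, Spc24 and Cenpk passed, and had ratios below 1 in neither gate, unlike 58 of the 66 higher genes. The difference between the gates was not tested. Spc24, of the kinetochore's Ndc80 complex, was at 25.1 CPM (38 UMIs in 27 cells) in WT-CNO and 78.3 CPM (114 UMIs in 45 cells) in DREADD-CNO, a ratio of 3.12 (2.14 to 4.62), and at 6.38 and 5.03 CPM in neither gate. Pclaf was at 114 and 233 CPM, a ratio of 2.04 (1.69 to 2.46), against 9.34 and 6.69 in neither gate. Rrm2 was at 58.2 and 92.7 CPM (1.59, 1.21 to 2.11), and Cenpk at 80.0 and 128 CPM (1.6, 1.26 to 2.02). Gmnn, geminin, which blocks a second licensing, was at 33.1 and 66.6 CPM but had 97 UMIs on its higher side, under the minimum. These differences were not even over the cells. Spc24 had ratios of 3.11 in ribosomal-rich and 2.82 in ribosomal-poor cells, 4.88 in female and 1.29 (0.677 to 2.72) in male cells. Pclaf had 1.87, 1.27 (0.739 to 2.14), 2.53 and 1.08 (0.764 to 1.54) in the same order. In the upper range of the G2/M set Rrm2 had a ratio of 2.11 (1.37 to 3.34), and below 4 per 10000 it had 0.928 (0.612 to 1.40). That upper range held 21 of 82 S gate cells in WT-CNO, or 25.6% (16.6 to 36.4). In DREADD-CNO it held 25 of 67, or 37.3% (25.8 to 50), a difference of 11.7 points (-3.14 to 26.2), within counting error. The G2 and M list had a median log2 library ratio of 0.45 in S gate cells and -0.32 in neither gate, with 24 of 29 members higher in value and 0 past the rule. Licensing genes had a median of 0.22, repair genes 0.0047 and all genes 0.026. To hold the minimum of UMIs, a higher gene needed 68.7 CPM in DREADD-CNO S gate cells. All 35 genes of the G2 and M list together summed to 708 CPM there. Few of them could pass, so nothing is read from their count of 0. The S set genes that chose the cells ranged in ratio from 0.898 for Mcm6 to 1.30 for Mcm5.

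Nrarp, a target and inhibitor of Notch signalling, was at 35.7 and 84.5 CPM (2.37, 1.70 to 3.32) in S gate cells and at 40.5 and 63.3 in neither gate. Pnlip, a lipase gene, was at 36.4 and 84.5 CPM, with ratios of 2.87 in ribosomal-rich and 0.543 in ribosomal-poor cells. Higd1a, a mitochondrial gene induced by low oxygen, was at 62.8 and 130 CPM. Egr1, an immediate early transcription factor, was at 98.5 and 192 CPM in S gate cells (1.94, 1.59 to 2.39) and at 82.7 and 193 in neither gate. In WT-CNO 1 cell held 22.1% of its UMIs, and with the highest cell of each library left out the ratio was 2.34. Fos was at 15.9 and 44.6 CPM, on 24 and 65 UMIs, and at 15.7 and 44.1 in neither gate. Mbp was at 74.7 and 124 CPM (1.65, 1.30 to 2.11), with a ratio of 1.19 (0.731 to 2.02) within male cells. Cnih2, an auxiliary subunit of AMPA receptors, was at 36.4 and 72.1 CPM (1.98, 1.42 to 2.80). The receptor subunits did not pass. Gria1 was at 104 and 141 CPM, Gria2 at 1246 and 1275, Gria3 at 588 and 543, and Gria4 at 758 and 618. The rule also took Hs3st5, a heparan sulfate sulfotransferase gene, at 47.6 and 94.8 CPM, and Cfl2, an actin regulator, at 68.8 and 128. Ratios moved by over 1.5 times for Nrarp in ribosomal-poor cells (1.21), for Egr1 (3.34) and Hs3st5 (17.6, 3.07 to 705) in male cells, and for Cnih2 with the G2/M set at 4 and over (3.27).

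On the lower side, Pvt1, a long noncoding RNA gene next to Myc, was at 73.4 CPM in WT-CNO and 33.7 in DREADD-CNO (0.458, 0.321 to 0.647), and at 34.7 and 22.7 in neither gate. Its ratio was 0.407 in female and 0.386 in male cells, 0.343 in ribosomal-rich and 0.936 (0.505 to 1.67) in ribosomal-poor cells. Cdk6, the kinase partner of D cyclins, was at 76.0 and 39.8 CPM (0.524, 0.375 to 0.724) in S gate cells and at 58.1 and 49.5 in neither gate. Its ratios were 0.548 and 0.347 by ribosomal state, and 0.531 in female and 0.801 (0.403 to 1.73) in male cells. Gabrg3, a GABA receptor subunit gene, was at 81.3 and 44.0 CPM, and 1 DREADD-CNO cell held 35.9% of its UMIs. In ribosomal-rich cells its ratio was 1.02. Fhit was at 229 and 127 CPM, Arpp21 at 104 and 57.7, and Asb3, Pip4p2, Dmtf1, Slc9a7 and Focad had ratios between 0.544 and 0.582. Several of these ratios differed between subsets of the cells. Over all S gate cells the ratio of Fhit was 0.555, and it was 0.816 (0.654 to 1.01) with the G2/M set under 4 per 10000, 0.237 (0.166 to 0.334) at 4 and over, and 0.854 (0.554 to 1.36) in male cells. In male cells Arpp21 had 0.934 and Dmtf1 0.859, in female cells Focad had 0.340, in ribosomal-poor cells Slc9a7 had 0.920 and Pip4p2 0.273, and with the G2/M set at 4 and over Pip4p2 had 1.01. Ccnd1 was at 263 and 207 CPM, with ratios of 0.710 (0.592 to 0.850) below 4 per 10000 of the G2/M set and 1.44 (1.02 to 2.06) above it.

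**Figure D5:**
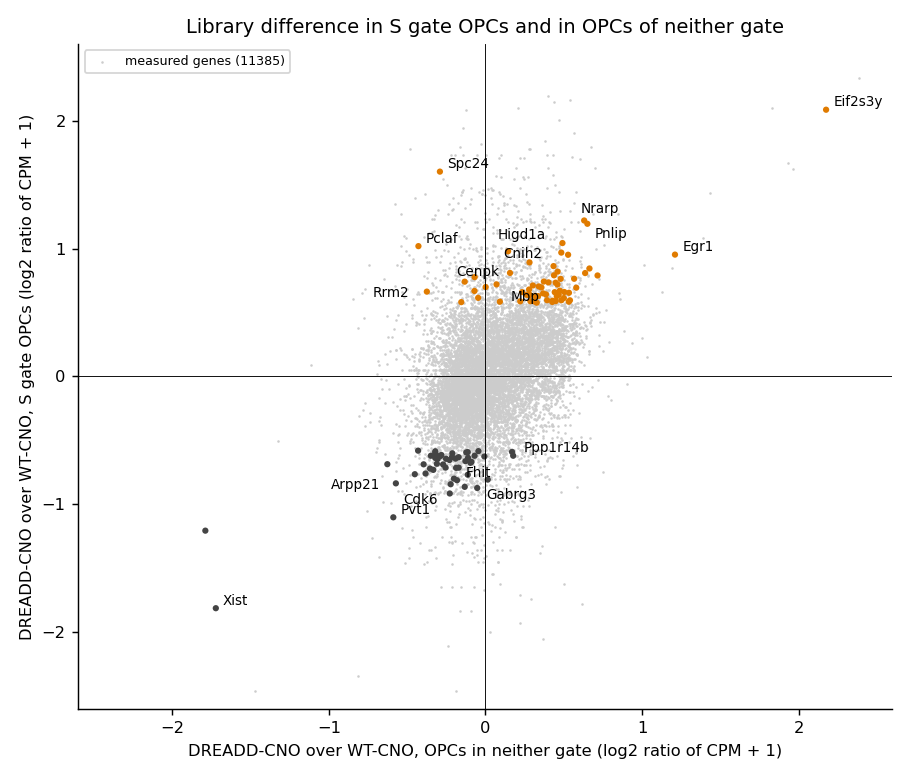
Log2 ratio of DREADD-CNO over WT-CNO (CPM + 1) in OPCs of neither gate (horizontal) and in S gate OPCs (vertical), with each of 11385 measured genes as a grey point apart from 2 outside the range, the 66 higher genes in orange and the 49 lower in dark grey. Spc24, Pclaf and Rrm2 lie left of 0 on the horizontal axis, with values of 6.38 and 5.03, 9.34 and 6.69, and 5.58 and 4.08 CPM in neither gate.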

How the data were processed

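Counts, UMI counts per gene and barcode, were deposited by the authors, made with Cell Ranger 7.1.0 per the file headers and the submitters' processing notes. They were used as deposited, over 32285 features. The genome build behind them is not given in the sources used here. Members and gene lists were chosen with earlier results of these data known.

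Cells were taken by the rule in the report with Python 3.11.15, numpy 2.4.6, scipy 1.17.1 and pandas 2.3.3. Doublets were scored with Scrublet in scanpy 1.11.5 and removed only as an alternative, at the expected share (203 and 257 barcodes), since its automatic threshold called 1 and 75. UMIs were summed by gate and library and scaled to CPM. Genes at a mean of 5 CPM or more counted as measured, and log2 ratios used 1 CPM added. Shares have exact Clopper-Pearson intervals, their differences Newcombe intervals, and ratios exact binomial intervals. A count of 0 was set at 3 counts. The size rule was tested on simulated data. TMM factors came from edgeR 4.0.16 in R 4.3.3.

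Named genes were the 15 highest and 10 lowest of the gate contrast, the 10 highest and 10 lowest of the library contrast (without Gm, Rik, mitochondrial, erythroid and sex-linked genes), the 3 most abundant and 2 most changed of each list, the rule's genes, Neurod6 and Gria1 to Gria4. Some genes that the rule takes are not reported here. Cdca7, Esco2, Kif11, Slbp, Cdkn1c, E2f3, Tfdp1, Bcas1, Cnp, Ttr, Xist, Eif2s3y and the 5 genes called in opposite directions in female and male cells stand outside it and were chosen after their values were seen. Alternatives covered scaling, limits, depth, doublets, state and sex.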

Additional observations from a re-analysis of the deposited data

Results flagged for a closer look

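The DREADD-CNO over WT-CNO ratio of 5 genes in S gate OPCs passed the size rule in opposite directions in female and male cells. Kcnmb2 had a ratio of 0.567 in female and 3.11 in male cells, Plekha5 0.651 and 1.63, Uvrag 0.651 and 1.90, 2210408I21Rik 0.661 and 1.67, and Kcnh8 0.666 and 1.89. These rest on 64 and 15 female cells and 12 and 44 male cells. The size rule's minimum of UMIs on the higher side was easier to reach in the library with more cells of that sex. That library was WT-CNO for female and DREADD-CNO for male cells, which favours lower calls in female and higher calls in male cells. Opposite calls therefore cannot show a difference between the sexes, which was not tested.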

How the results depend on the processing

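No paired analysis was possible because each group is 1 library. The share difference kept an interval that held 0 under every alternative tried. With 6 other S genes (Pcna, Mcm2, Mcm4, Mcm7, Gins2 and Cdc6) it changed sign, to 0.935 points (-0.0526 to 1.96). The gate of those genes held 66 and 78 cells. Of these, 36 and 40 were also in the S gate, which is 43.9% and 59.7% of the S gate cells. In male cells the share difference was -1.32 points. Genes higher in the S gate than in neither gate numbered 6 with the S set at 12 per 10000 (16 and 21 cells), 6 after thinning to 5000 UMIs, 66 in ribosomal-rich and 5 in ribosomal-poor cells; genes lower numbered 39 after thinning and 43 in ribosomal-poor cells. Fewer cells or UMIs let fewer genes reach the minimum of 100 UMIs. In the library contrast, genes higher numbered 133 with the S set at 12, 14 after thinning, 6 in ribosomal-poor cells, 441 without minimums, 10 in female cells, 40 with the ribosomal states weighted equally and 37 with the G2/M set under 4 per 10000. Genes lower numbered 25 with the S set at 12, 8 after thinning, 18 in ribosomal-rich cells, 291 without minimums, 108 in female and 2 in male cells, and 26 with the G2/M set at 4 and over. In female and in male cells the direction of calls depended on which library had more cells to reach the minimum of UMIs. List members past the rule numbered 10, and 1 after thinning, 2 in ribosomal-poor cells, 44 without minimums and 6 in male cells. Log2 ratios turned for Arpp21 (0.23) and Slc9a7 (0.024) with the S set at 12, Dmtf1 (0.55) after thinning, Gabrg3 in ribosomal-rich (0.0247) and male cells (1.66), Pnlip (-0.85) in ribosomal-poor cells, Pip4p2 (0.018) with the G2/M set at 4 and over, and Frmd4a (0.10, gate contrast) against neither-gate cells low in committed precursor and myelin genes. The cause was not tested. The last alternative and those on the G2/M set, and leaving out each gene's highest cell (66 higher and 49 lower), were chosen after seeing the data.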
